A study of Mus musculus with 8 samples.

Results

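The genes described here encode proteins of synaptic vesicles and of glutamate loading into them: the SV2 family (Sv2a, Sv2b, Sv2c), synaptophysin (Syp), the synapsins (Syn1, Syn2, Syn3), the small GTPase Rab3a and the vesicular glutamate transporters Slc17a6 and Slc17a7. They were taken by symbol from the deposited gene table, and 9 of the 10 listed genes were matched among its 24155 genes. Slc17a6 was not analysed here.

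Messenger RNA was sequenced from cultures of mouse oligodendrocyte progenitors, the dividing glia from which myelinating cells arise. They were immunopanned from male and female pups at postnatal day 7. In every culture, those of the control group included, both Ehmt1 alleles and both Ehmt2 alleles were floxed, and the SATO medium held 2 mitogens, 10 ng/mL of PDGF-AA and 20 ng/mL of bFGF. The cKO group (4 libraries) received Ad-RFP-iCre, an adenovirus that carries Cre recombinase with a red fluorescent protein, and the control group (4 libraries) received Ad-RFP, which lacks Cre. Cells were exposed to either virus for 6 hours (multiplicity of infection 10) and harvested 72 hours after infection. Batches 1, 3, 4 and 6 each gave 1 cKO and 1 control library, and the comparison was made within batches. The labels do not say whether batches came from separate animals, so p-values measure the spread of the cKO minus control difference between these batches, which may be partly technical. In such bulk samples, fewer cells of a type and less RNA per cell cannot be told apart.

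As background, neurons store transmitter in small vesicles whose membranes carry SV2 glycoproteins and synaptophysin. Synapsins are phosphoproteins on the outer face of the vesicle that tether vesicles to one another and to actin, and Rab3a guides vesicles to the release site. Slc17a7 and Slc17a6 (VGLUT1 and VGLUT2) fill vesicles with glutamate, using a proton gradient made by the vesicle's proton pump. EHMT1 and EHMT2 methylate histone H3 on lysine 9, a mark of silenced genes. Oligodendrocyte progenitors receive synaptic contacts from neurons and are known to transcribe a number of presynaptic genes.

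The bases upstream of the 3 SV2 genes and of Syn1 are shown because these are the 4 genes that rose in cKO cultures. They are from RefSeq on GRCm38.p6 (the assembly called mm10), 5′ to 3′ on the strand of the gene, and each stretch stops before the gene model of the deposited table. Windows of 250 bases before the RefSeq start were matched for 8 of the 9 genes analysed, and Syn3 was not matched. Sv2b had 4 such windows, and Syn2 and Rab3a had 2 each. For these genes only the window nearest the gene start of the deposited table was used, so their values hold for that start alone. In the SV2 genes capitals mark CG pairs. In Syn1 they mark the motif matches described next.
Sv2a, chr3:96180977-96181150, plus strand: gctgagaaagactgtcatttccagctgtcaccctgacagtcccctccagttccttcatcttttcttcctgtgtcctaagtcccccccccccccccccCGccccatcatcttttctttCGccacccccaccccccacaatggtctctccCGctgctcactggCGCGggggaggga
Sv2b, chr7:75309263-75309512, minus strand: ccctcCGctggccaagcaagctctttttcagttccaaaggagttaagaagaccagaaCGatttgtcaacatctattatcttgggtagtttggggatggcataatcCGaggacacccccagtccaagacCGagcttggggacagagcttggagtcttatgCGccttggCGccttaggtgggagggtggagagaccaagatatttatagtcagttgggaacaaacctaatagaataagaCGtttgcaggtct
Sv2c, chr13:96132578-96132827, minus strand: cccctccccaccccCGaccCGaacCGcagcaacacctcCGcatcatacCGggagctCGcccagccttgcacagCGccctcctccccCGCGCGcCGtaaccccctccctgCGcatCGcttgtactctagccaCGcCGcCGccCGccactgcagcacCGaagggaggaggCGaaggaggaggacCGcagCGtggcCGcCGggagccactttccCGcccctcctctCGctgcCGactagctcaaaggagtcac
Syn1, chrX:20921005-20921168, minus strand: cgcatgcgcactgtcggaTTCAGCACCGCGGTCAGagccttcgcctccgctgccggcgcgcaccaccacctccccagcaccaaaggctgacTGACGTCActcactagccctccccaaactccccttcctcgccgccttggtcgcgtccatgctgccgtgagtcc

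The 3 SV2 genes differ in this stretch. In the full window of 250 bases, Sv2c held 26 CG pairs, Sv2a held 13 and Sv2b held 7, against a median of 6 over 32851 RefSeq windows of the same length. Sv2b was also the poorest in G and C, at 48.8%, and Sv2c the richest, at 70.8%. The RefSeq starts of Sv2a and Syn1 lie 76 and 86 bases inside the gene models of the table, so their printed stretches are shorter than the window. Syn1 held 27 CG pairs. Of the other genes matched, none of which was called, Syn2 and Rab3a held 16 each, Syp held 11 and Slc17a7 held 9. On either strand, the windows were searched for TTCAGCACC, the left part of the RE1 element to which the repressor REST binds, and for a longer RE1 core of CAGCACC followed, after any 2 bases, by GGNCAG, which overlaps it. They were also searched for TGACGTCA, the cAMP response element. Of the 8 genes matched, Syn1 alone held these letters, each motif at 1 place, with TTCAGCACC at positions -232 to -224 and TGACGTCA at -159 to -152, counted from the RefSeq start with the base before it as -1. Of all windows, 0.301% held TTCAGCACC, 0.0517% held the longer core and 1.55% held TGACGTCA. These are matches of letters, and binding was not measured.

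Library totals ran from 43542742 to 62546092 estimated counts in cKO and from 51298606 to 65374488 in control libraries. Ehmt1 stood at 36.1, 41.9, 42.4 and 45.7 CPM (counts scaled to library size) in cKO libraries of batches 1, 3, 4 and 6, against 88.8, 100.2, 93.1 and 99.998 CPM in control libraries. Ehmt2 stood at 51.7, 55.5, 64.5 and 62.0 CPM in cKO libraries, against 154, 178, 196 and 181 CPM in control libraries. Neither gene's groups overlap, and the log2 fold changes of cKO over control were -1.20 ± 0.04 (SE) for Ehmt1 and -1.60 ± 0.03 (SE) for Ehmt2 in the fit described next. Reads from exons that Cre leaves in place still count toward both. The progenitor marker Pdgfra averaged 773 ± 322 CPM in cKO and 969 ± 442 CPM in control libraries (SD, n = 4 each), and it fell by 0.31 on the log2 scale. Batches stood apart from one another. The summed level of 8 oligodendrocyte markers was 7274 and 4088 CPM in cKO libraries of batches 4 and 6, against 938 and 833 CPM in those of batches 1 and 3. In control libraries it was 7319 and 5029 CPM in batches 4 and 6, against 658 and 737 CPM in batches 1 and 3.

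The comparison asked how the vesicle genes differ between cKO and control progenitors. All 3 SV2 genes and Syn1 rose, Sv2b at a level close to its detection limit, while Syp, Syn2, Syn3 and Rab3a did not pass the test. The test was edgeR's quasi-likelihood test with the batch as a block, fitted to 18102 genes. A gene is said to rise or fall where its p, adjusted over all of them by the Benjamini-Hochberg method, was under 0.05. Of 8 genes tested, 4 rose and 0 fell (5 higher and 0 lower at an unadjusted p under 0.05, and 0 lower with DESeq2 or limma-voom). Over all genes 20.5% were called, 10.0% as higher and 10.4% as lower. Sv2b passed the filter on low counts through its cKO libraries alone and so had to differ; without it the count is 3 of 7. The median log2 fold change of the 8 genes was 0.20, beside -0.0066 over all genes tested. With group alone in the model none of the 8 passed in edgeR (1, Sv2b, at an unadjusted p under 0.05).

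**Figure D1:**
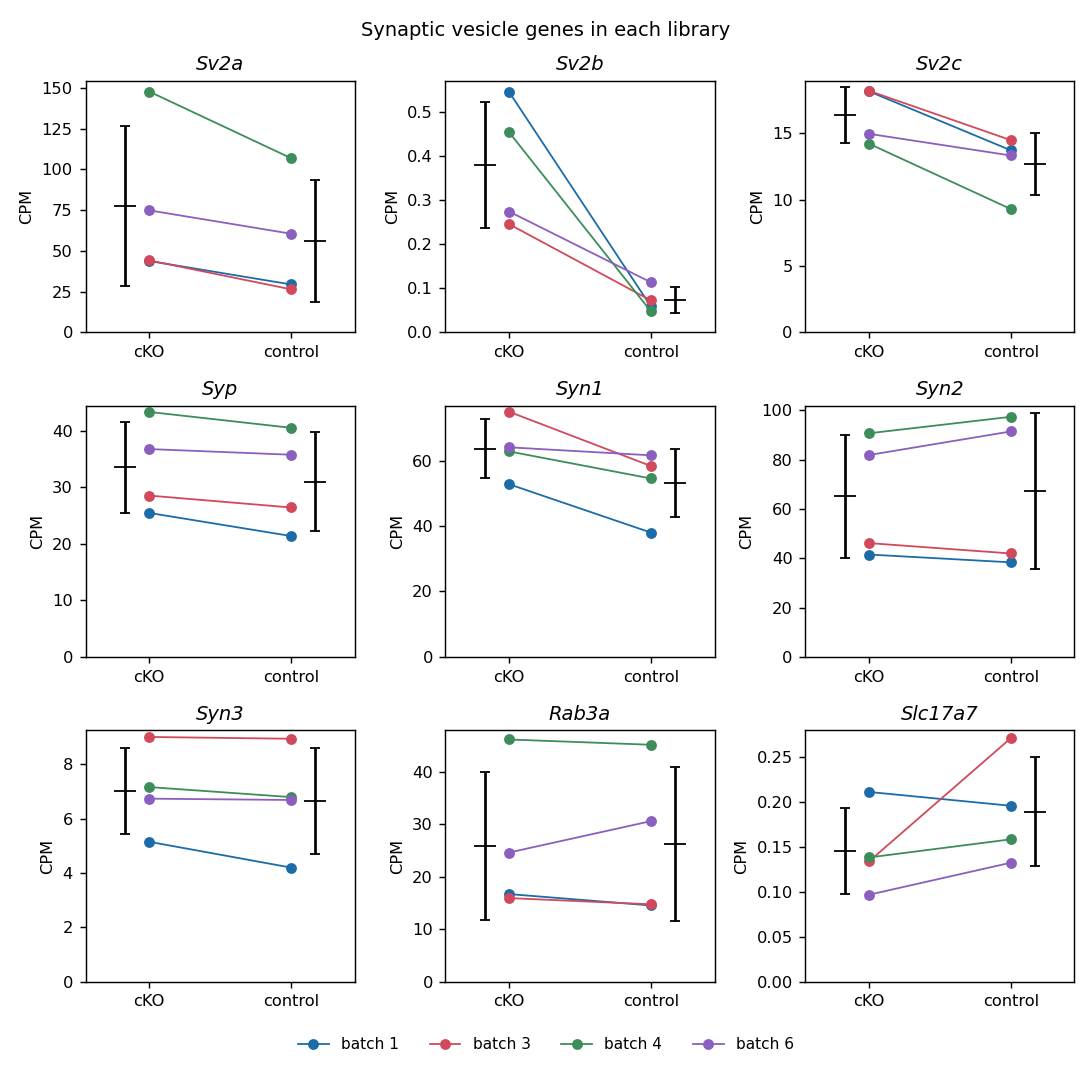
CPM of each gene (linear axes from 0) in cKO libraries on the left and control libraries on the right, with a line joining the 2 libraries of a batch; black bars give the mean ± SD of 4 libraries. For Sv2a, Sv2b, Sv2c, Syp, Syn1 and Syn3 every line is higher at its cKO end, and for Syn2 the lines go both ways.

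Sv2a (chromosome 3, 96181151 to 96195521, plus strand) encodes the SV2 form found in most synapses and is the binding site of the drug levetiracetam. It stood at 43.8, 44.1, 148 and 74.9 CPM in cKO libraries of batches 1, 3, 4 and 6, against 29.4, 26.4, 107 and 60.5 CPM in control libraries of the same batches. The groups overlap because batch 4 was high in both, but cKO was the higher library in every batch. The log2 fold change was 0.51 ± 0.06 (SE), with an edgeR adjusted p of 0.00154. Differences within pairs on the log2 scale ran from 0.31 in batch 6 to 0.74 in batch 3. An exact sign-flip permutation test over 4 pairs gave a 2-sided p of 0.13, the smallest that 4 pairs allow.

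Sv2b (chromosome 7, 75114894 to 75309262, minus strand), a form abundant in forebrain neurons, was barely detected. Rounded counts were 31, 11, 23 and 17 in cKO libraries of batches 1, 3, 4 and 6, against 3, 4, 3 and 6 in the control libraries. Every cKO library was above every control library. That is 0.380 ± 0.144 CPM in cKO and 0.0731 ± 0.0288 CPM in control libraries (SD, n = 4 each). The log2 fold change was 2.33 ± 0.44 (SE), with an edgeR adjusted p of 0.00462. The ratio of the summed counts, 82 in cKO and 16 in control, was 5.32 after scaling by library size, with an exact 95% binomial interval of 3.09 to 9.74 that covers counting error only. DESeq2 gave Sv2b no adjusted p.

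Sv2c (chromosome 13, 95954594 to 96132577, minus strand), the form enriched in basal ganglia and a receptor of botulinum toxin A, was expressed at a moderate level. It stood at 18.2, 18.2, 14.2 and 15.0 CPM in cKO libraries of batches 1, 3, 4 and 6, against 13.7, 14.5, 9.29 and 13.3 CPM in control libraries. The lowest cKO library, that of batch 4, lay just under the highest control library, that of batch 3. The log2 fold change was 0.38 ± 0.07 (SE), with an edgeR adjusted p of 0.00545, and differences within pairs ran from 0.17 in batch 6 to 0.61 in batch 4. The gene model Gm20075 lies inside Sv2c on the same strand and shares no merged exon base with it. It averaged 72.2 CPM in cKO and 64.6 CPM in control libraries and rose by 0.16 ± 0.03 (SE, log2).

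Syp (chromosome X, 7638471 to 7653256, plus strand) encodes synaptophysin, the most abundant vesicle membrane protein by mass and a routine marker of presynaptic endings. It stood at 25.5, 28.6, 43.4 and 36.8 CPM in cKO libraries of batches 1, 3, 4 and 6, against 21.4, 26.5, 40.6 and 35.8 CPM in control libraries. cKO was higher in 4 of 4 pairs, by 0.25 on the log2 scale in batch 1 and by 0.04 to 0.11 in the others. The log2 fold change of 0.12 ± 0.05 (SE) did not pass (edgeR adjusted p = 0.0837). The antisense model Gm14703 shares 875 exon bases with Syp but averaged 0.550 CPM in cKO and 0.620 CPM in control libraries.

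Among the synapsins, Syn1 rose and the other two did not pass. Syn1 (chromosome X, 20860511 to 20921004, minus strand) encodes synapsin I, the main synapsin of adult neurons. It stood at 52.7, 74.9, 62.8 and 64.0 CPM in cKO libraries of batches 1, 3, 4 and 6, against 38.0, 58.3, 54.5 and 61.6 CPM in control libraries. The groups overlap, with cKO the higher library in each batch. The log2 fold change was 0.27 ± 0.06 (SE), with an edgeR adjusted p of 0.0221; without the pair of batch 3 it was 0.24 with an adjusted p of 0.103. The difference within pairs was 0.47 in batch 1 and 0.06 in batch 6. Araf overlaps the end of Syn1 by 9 exon bases on the opposite strand. It averaged 62.1 CPM in cKO and 58.2 CPM in control libraries and did not pass (edgeR adjusted p = 0.128).

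Syn2 (chromosome 6, 115134902 to 115282006, plus strand), encoding synapsin II, stood at 41.5, 46.1, 90.6 and 81.8 CPM in cKO libraries of batches 1, 3, 4 and 6, against 38.3, 41.9, 97.3 and 91.4 CPM in control libraries. cKO was higher in batches 1 and 3 and lower in batches 4 and 6, the batches in which Syn2 was at its highest. Its log2 fold change was -0.0096 ± 0.05 (SE; edgeR adjusted p = 0.924).

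Syn3 (chromosome 10, 86055125 to 86498896, minus strand), encoding synapsin III, which is best known from developing neurons, stood at 5.14, 9.0, 7.16 and 6.73 CPM in cKO libraries of batches 1, 3, 4 and 6. In control libraries it stood at 4.20, 8.93, 6.79 and 6.68 CPM. Batch 1 differed by 0.29 on the log2 scale and the others by 0.01 to 0.08, and the log2 fold change of 0.09 ± 0.08 (SE) did not pass (edgeR adjusted p = 0.484).

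Each synapsin gene holds a gene of a metalloproteinase inhibitor of the TIMP family on its opposite strand, and the deposited counts do not say whether strand was used. Timp3, inside Syn3, shares 1733 of the 12282 merged exon bases of Syn3. It averaged 175 ± 90.3 CPM in cKO and 246 ± 145 CPM in control libraries (SD, n = 4 each) and fell by 0.45 on the log2 scale (edgeR adjusted p = 0.000104). Timp4, inside Syn2, shares 90 exon bases with it and also fell, by 0.35 on the log2 scale (edgeR adjusted p = 0.0031). Timp1, inside Syn1, shares no merged exon base with it, averaged 0.756 CPM in cKO and 0.276 CPM in control libraries, and rose by 1.47 ± 0.27 (SE, log2). The part of reads from these genes in the synapsin counts was not tested. The estimated counts of Syn3 were not whole in any of the 8 libraries, and neither were those of Syp and Rab3a.

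Rab3a (chromosome 8, 70754679 to 70758677, plus strand) stood at 16.7, 15.9, 46.1 and 24.6 CPM in cKO libraries of batches 1, 3, 4 and 6, against 14.5, 14.7, 45.1 and 30.6 CPM in control libraries. cKO was higher in 3 of 4 pairs and lower in batch 6. The log2 fold change was -0.0037 ± 0.08 (SE; edgeR adjusted p = 0.981), and without the pair of batch 6 it was 0.11. Mpv17l2 overlaps the end of Rab3a by 29 exon bases on the opposite strand.

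Slc17a7 (chromosome 7, 45163949 to 45176142, plus strand), the glutamate transporter of cortical excitatory neurons, was at the limit of detection and did not pass the filter. Its counts were 12, 6, 7 and 6 in cKO libraries of batches 1, 3, 4 and 6, against 10, 15, 10 and 7 in control libraries. The groups overlap. The scaled ratio of the sums, 31 in cKO and 42 in control, was 0.766, with an exact 95% binomial interval of 0.466 to 1.25, and with no filter its log2 fold change was -0.36 ± 0.45 (SE; edgeR adjusted p = 0.688). No difference was detected; the interval covers counting error only.

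**Figure D2:**
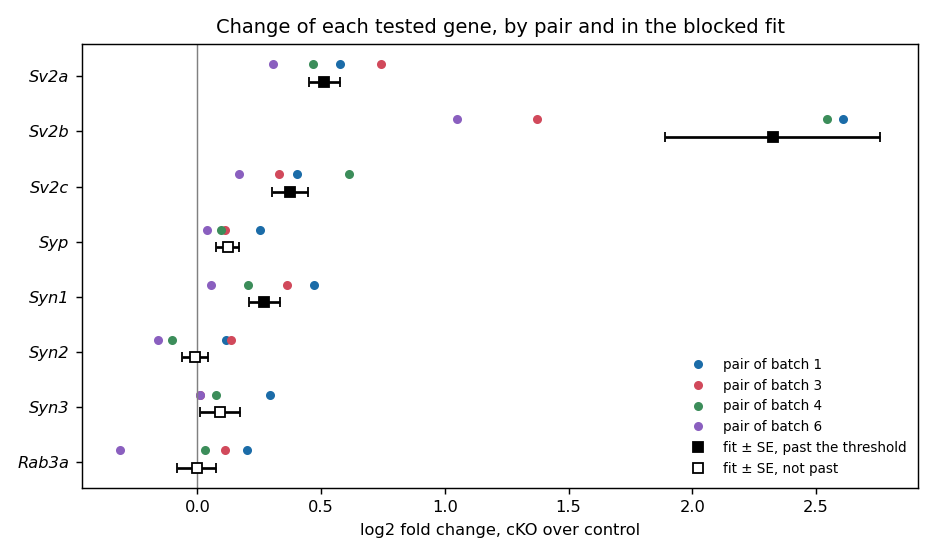
Log2 fold change of cKO over control for the 8 genes tested: squares give the blocked edgeR fit ± SE, filled where past the threshold, and dots give the log2 difference within each batch. The dots of Sv2a, Sv2b, Sv2c and Syn1 all lie above 0, as do those of Syp and Syn3, which did not pass. Sv2b stands far to the right at 2.33.

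Members of a family were compared by the difference of their log2 changes within each pair, in 6 comparisons. The log2 difference of Syn1 was above that of Syn2 in 4 of 4 pairs, by 0.28 ± 0.07 (SD, n = 4; exact sign-flip permutation p = 0.13, 0.188 adjusted over 6). It was also above that of Syn3 in 4 of 4 pairs, by 0.18 ± 0.13 (SD), with the same exact p-values. Since Sv2b passed the filter through its cKO libraries alone, its values are given as a description: its log2 difference less that of Sv2c ran from 0.88 to 2.21 over the 4 pairs, and that of Sv2a less that of Sv2b ran from -2.08 to -0.63. Sv2a and Sv2c differed by 0.15 ± 0.23 (SD) with 1 pair in the other direction (exact p = 0.375). With 4 pairs an exact test cannot go below 0.13, so none of these differences can pass.

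Adjusted for length, as CPM per kilobase of merged exons (GENCODE M21), the levels fell into 3 tiers. Syn1, at 19.3 ± 2.75 in cKO and 16.1 ± 3.18 in control libraries, Sv2a, at 16.8 ± 10.6 in cKO and 12.04 ± 8.08 in control libraries, Rab3a, Syn2 and Syp formed the highest tier (SD, n = 4 each). Syp, the lowest of it, was at 6.44 ± 1.55 in cKO and 5.96 ± 1.67 in control libraries, and neighbours in this tier overlap in their ranges. Sv2c was lower, at 1.69 ± 0.216 in cKO and 1.31 ± 0.240 in control libraries, as was Syn3, at 0.571 ± 0.129 in cKO and 0.541 ± 0.158 in control libraries. The lowest tier held Slc17a7, at 0.0269 ± 0.00889 in cKO and 0.0352 ± 0.0112 in control libraries, and Sv2b, at 0.0454 ± 0.0172 in cKO and 0.00872 ± 0.00344 in control libraries. Of the summed length-adjusted level of the SV2 genes, Sv2a made up 88.2% ± 6.12 in cKO and 86.8% ± 7.81 in control libraries, and Sv2b 0.294% ± 0.190 in cKO and 0.0820% ± 0.0411 in control libraries. Of the synapsins, Syn1 made up 66.8% ± 8.16 in cKO and 62.6% ± 8.56 in control libraries, higher in cKO in 4 of 4 pairs (exact sign-flip permutation p = 0.13).

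**Figure D3:**
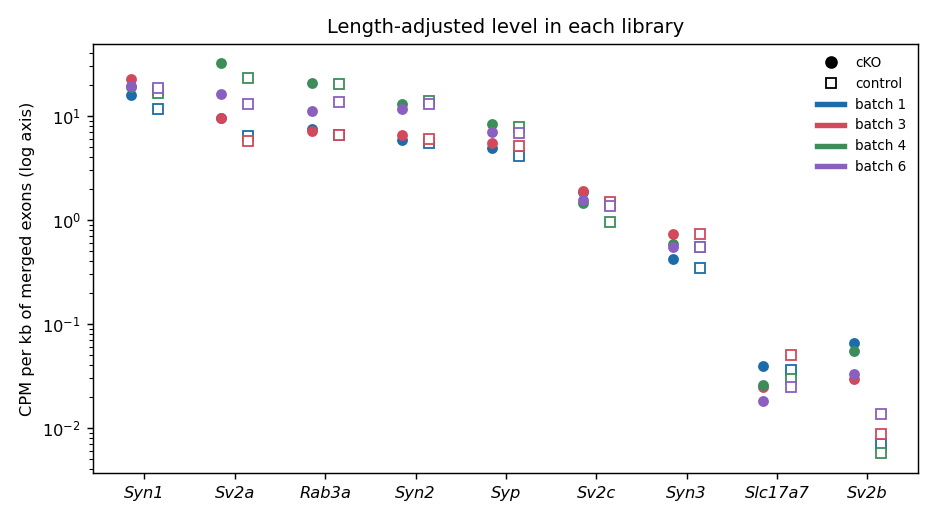
CPM per kilobase of merged exons on a log axis, for cKO libraries (filled circles, left) and control libraries (open squares, right), coloured by batch and ordered by the control mean. Sv2b is the gene whose cKO and control points part completely, at a level far under that of Sv2a.

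Several of these genes differed more between batches than between cKO and control libraries. The highest batch mean was 3.62 times the lowest for Sv2a (127 CPM in batch 4, 35.3 CPM in batch 3), 2.98 times for Rab3a, 2.35 times for Syn2 and 1.79 times for Syp, in each case with batches 4 and 6 above batches 1 and 3. These are the batches with the high oligodendrocyte marker sums given above. Syn1, Syn3 and Sv2c did not share that order: Syn3 was highest in batch 3 and Sv2c lowest in batch 4, with ratios of 1.47, 1.92 and 1.39. The part of cell makeup in these batch levels was not tested. By Pearson's r of log2 CPM over the 8 libraries, the named genes most like Sv2a were Sptbn4 (0.995), Rnf144b, Shank3, Lingo2 and Stx7 (0.991), all of which rose. That r follows both the batches and the difference between cKO and control, so these rises are not a separate result.

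Related genes were described in 6 lists, with 67 genes tested, of which 21 rose and 4 fell, beside 10.0% called as higher and 10.4% as lower over all genes. Tph2, Svopl and Atp6v0a4, among the 21, passed the filter on low counts wholly or mainly through their cKO libraries. Without the pair of batch 1 or of batch 3, 10 rose and 2 fell, and without that of batch 4, 16 rose and 2 fell. Of 10 vesicle membrane relatives, 4 rose and 0 fell (1 lower at an unadjusted p under 0.05; DESeq2 called 1 higher and 0 lower), with a median log2 fold change of 0.13. Svopl, among the 4, passed the filter on low counts mainly through its cKO libraries. It ran from 0.211 to 0.313 CPM in cKO and from 0.0784 to 0.217 CPM in control libraries. Svop, an SV2-related transporter-like protein, rose by 0.64 ± 0.07 (SE), with 44.3 ± 17.9 CPM in cKO and 28.9 ± 13.1 CPM in control libraries (SD, n = 4 each). Syngr1, a tetraspan relative of synaptophysin, rose by 0.21 ± 0.06 (SE).

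Of 15 relatives, effectors and regulators of Rab3, 6 rose and 0 fell (1 lower at an unadjusted p under 0.05, and 0 lower with DESeq2 or limma-voom), with a median of 0.14. Rab3b and Rab3d, sister GTPases of Rab3a, rose, by 0.73 ± 0.09 and 0.42 ± 0.09 (SE). Rab3b averaged 19.6 ± 8.30 CPM in cKO and 12.4 ± 7.39 CPM in control libraries (SD, n = 4 each). The difference between Rab3a and these genes was not tested.

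Of 9 other vesicular transporters in the table, 4 were tested, 1 rose and 1 fell. The shares over all genes were 10.0% called as higher and 10.4% as lower. Slc17a8 (VGLUT3), which loads glutamate in neurons that mainly use another transmitter, stood at 4.88, 1.34, 1.15 and 3.33 CPM in cKO libraries of batches 1, 3, 4 and 6, against 1.22, 0.289, 0.270 and 1.34 CPM in control libraries. It was higher in cKO in every batch, and rose by 1.82 ± 0.19 (SE; edgeR adjusted p = 0.000172). Slc18b1, a vesicular polyamine transporter, fell by 0.21 on the log2 scale, a call lost without the pair of batch 1, 3 or 4 (edgeR adjusted p = 0.112, 0.134 and 0.0897). The GABA transporter gene Slc32a1 and the amine and acetylcholine transporter genes Slc18a1 and Slc18a3 were under the filter. Slc18a2, another amine transporter gene, was tested and did not pass (edgeR adjusted p = 0.898). It averaged 2.01 CPM in cKO and 2.03 CPM in control libraries, with a log2 fold change of -0.036 ± 0.15 (SE).

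Of 6 transmitter synthesis genes tested, 2 rose and 1 fell. Ddc, the aromatic amino acid decarboxylase of dopamine and serotonin synthesis, averaged 2.04 ± 0.431 CPM in cKO and 0.334 ± 0.123 CPM in control libraries (SD, n = 4 each) and rose by 2.62 ± 0.19 (SE). Tph2, the tryptophan hydroxylase of serotonin neurons, rose by 3.49 ± 0.43 (SE) to 0.450 ± 0.348 CPM in cKO, against 0.0364 ± 0.0166 CPM in control libraries. Its control libraries, at 0.0189 to 0.0588 CPM, all lay under the filter's cutoff of 0.183 CPM, so Tph2, like Sv2b, passed through its cKO libraries alone and had to differ; without it the count of rises is 1 of 5. Glul, glutamine synthetase, fell to 450 ± 180 CPM in cKO, against 711 ± 361 CPM in control libraries, a log2 fold change of -0.59 ± 0.10 (SE; edgeR adjusted p = 0.0148); without the pair of batch 1 or 6 the adjusted p was 0.0502 and 0.0683.

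Of 19 proton pump genes tested, 4 rose and 2 fell, mostly by little, with a median of 0.06 (DESeq2 called 1 higher and 2 lower, limma-voom 4 and 2). Over all genes 10.0% were called as higher and 10.4% as lower. Atp6v0a4, among the 4, passed the filter on low counts mainly through its cKO libraries. It ran from 0.176 to 1.05 CPM in cKO and from 0.0588 to 0.227 CPM in control libraries. Atp6v1d and Atp6v1c1, subunits of the part that splits ATP, rose by 0.18 ± 0.04 and 0.15 ± 0.04 (SE), and Atp6v1g2, a subunit form enriched in neurons, and Atp6v0a2, a subunit of the membrane part, fell by 0.29 and 0.13 on the log2 scale. Atp6v1d was not past the threshold without the pair of batch 3 or 4 (edgeR adjusted p = 0.0629 and 0.0515), Atp6v1c1 without that of batch 1 or 3 (0.133 and 0.158), and Atp6v0a2 without that of batch 3, 4 or 6 (0.0662, 0.119 and 0.0532). Syngr1 likewise was not without the pair of batch 1, 4 or 6 (0.116, 0.0780 and 0.0828). Of 13 genes of vesicle retrieval and synucleins, 4 rose and 0 fell (1 lower at an unadjusted p under 0.05, and 0 lower with DESeq2 or limma-voom). Snap91, the clathrin assembly protein AP180, rose by 0.21 ± 0.04 and Sncb, beta-synuclein, by 1.01 ± 0.21 (SE).

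**Figure D4:**
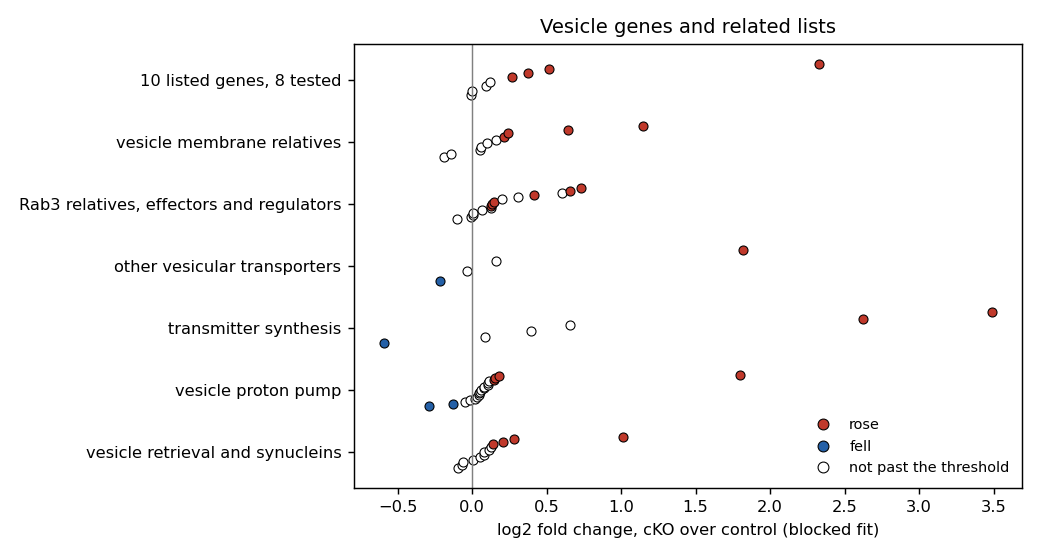
Log2 fold change of cKO over control in the blocked edgeR fit for the 8 vesicle genes tested and for the tested genes of 6 related lists; red points rose, blue points fell and open points did not pass. In transmitter synthesis Ddc stands at 2.62 and Tph2 at 3.49. Tph2 and Sv2b passed the filter on low counts through their cKO libraries alone, and Svopl and Atp6v0a4 mainly through theirs.

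Some markers of neurons were also higher in cKO cultures. Beside the counts that follow, 10.0% of all genes tested were called as higher and 10.4% as lower. Of 12 neuron markers, all tested, 6 rose and 0 fell (1 lower at an unadjusted p under 0.05; 6 and 0 with DESeq2, 7 and 0 with limma-voom). The 6 were Snap25, Stmn2, Syt1, Nefl, Dcx and Elavl4. Of them Stmn2 passed the filter on low counts mainly through its cKO libraries. It ran from 0.336 to 1.81 CPM in cKO and from 0.0159 to 0.216 CPM in control libraries. The summed level of all 12 ran from 1328 to 1874 CPM in cKO and from 1244 to 1807 CPM in control libraries, higher in cKO in 4 of 4 pairs, most of it Map2, which averaged 966 CPM in cKO and 970 CPM in control libraries. Rbfox3, the gene of the neuronal nuclear antigen NeuN, averaged 1.20 ± 0.379 CPM in cKO and 1.56 ± 0.198 CPM in control libraries (SD, n = 4 each) and did not pass. Sums of 4 excitatory markers, Slc17a8 among them, ran from 2.75 to 9.62 CPM in cKO and from 2.35 to 5.20 CPM in control libraries, and those of 5 inhibitory markers from 2.64 to 4.90 CPM and from 1.79 to 3.11 CPM. Of 8 oligodendrocyte markers 4 rose, and the sum of 8 progenitor markers was lower in cKO in 4 of 4 pairs, at 7315 to 9206 CPM in cKO and 7692 to 9859 CPM in control libraries. Of these progenitor markers 1 rose (Lhfpl3), 2 fell (Pdgfra and Ptprz1) and 5 did not pass. The largest part of the sum was Ptprz1, which averaged 3579 CPM in cKO and 3836 CPM in control libraries. Sums of 8 astrocyte markers ran from 889 to 2469 CPM in cKO and from 887 to 2618 CPM in control libraries (2 rose and 1 fell). Sums of 2 microglia markers ran from 0.630 to 1.44 CPM in cKO and from 0.317 to 0.902 CPM in control libraries, higher in cKO in 4 of 4 pairs. P2ry12, the microglia marker that was tested, rose by 0.77 on the log2 scale (edgeR adjusted p = 0.0424; DESeq2 called 0). Sums of 6 vascular and fibroblast markers ran from 2.75 to 6.35 CPM in cKO and from 2.03 to 6.90 CPM in control libraries, and of 5 tested Rgs5 rose, by 1.22 on the log2 scale (edgeR adjusted p = 0.01996; DESeq2 called 0). Rgs5 also passed the filter mainly through its cKO libraries, at 0.179 to 1.15 CPM. Its control libraries ran from 0.0723 to 0.627 CPM. Of the listed neuron markers, Neurod2, Neurod6 and Lhx6 were not matched by symbol. Nor were the microglia markers Aif1, Cx3cr1, Tmem119 and C1qa, or the vascular and fibroblast markers Cldn5 and Dcn. The part of these cell types in the rises of Sv2a, Sv2b, Sv2c and Syn1 was not tested.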

How the data were processed

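The deposited values are estimated counts per gene, made by the authors without normalization, and 52.0% of them are not whole numbers. The submitters' processing notes name STAR, cutadapt, Partek and DESeq2 and the build mm10. Versions, annotation and strand setting were not given in the sources used here. Gene coordinates come from the table, 1-based with both ends included. Batch names tied columns to samples.

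Counts were rounded, edgeR's filterByExpr by group (minimum count 10) removed 6053 genes, and TMM factors were used. The main test was glmQLFit (robust) and glmQLFTest with replicate number as a block (edgeR 4.0.16, R 4.3.3), 2-sided, with Benjamini-Hochberg adjustment over 18102 genes. The pairing comes from the batch names in the labels. As a check, deviations from group means of same-numbered libraries correlated at 0.75 to 0.79, against at most 0.39 for other pairs of a cKO and a control library. Within groups, counts of no pair of libraries agreed within sampling noise (chi-square per degree of freedom of 55.5 or more). The code was tested on simulated data. SE was taken from the fold change and its F statistic. A prior count of 2 was added for log2 CPM. Intervals cover counting error only. At these library totals the spread between libraries limits precision, except for Sv2b and Slc17a7.

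The vesicle genes and the lists were chosen with earlier results of these data known. Besides these genes, up to 2 that rose and 2 that fell were named per list by smallest p, and for the gene of smallest p the 5 whose log2 CPM correlated best with it. Also named were the TIMP genes, the targeted genes and some of the genes overlapping the members. Alternatives were other scaling (RLE, upper quartile), other filters, no robust estimation, no block, DESeq2 1.42.0, limma-voom 3.58.1, other library sizes and each pair left out.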

Additional observations from a re-analysis of the deposited data

How the results depend on the processing

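The replicate block decided the calls. With no replicate block, 1 gene was higher and 2 were lower (621 and 272 at an unadjusted p under 0.05), 0 of the vesicle genes were called, and 0 and 0 of the related genes (5 and 0 unadjusted). The log2 fold changes were then 0.48 for Sv2a and 0.37 for Sv2c (edgeR adjusted p = 0.9999 for both), 2.36 for Sv2b (0.183) and 0.26 for Syn1 (0.9999). Of 20 other named genes, 18 lost their call without the block; Ehmt1 and Ehmt2 did not. Leaving out a pair gave 1127 to 1702 genes higher and 910 to 1730 lower, 10 to 20 related genes higher and 2 to 3 lower, and 3 to 4 vesicle genes higher. It gave log2 fold changes of 0.45 to 0.58 for Sv2a, 2.04 to 2.74 for Sv2b, 0.31 to 0.45 for Sv2c and 0.21 to 0.34 for Syn1, whose adjusted p ran from 0.00181 to 0.103. Sv2a and Sv2c stayed past the threshold in each of these fits. Sv2b did too, but it passed the filter on low counts through its cKO libraries alone, so its passing is not separate support. Values close to 0 turned sign: Syn2 was at 0.0043 with upper-quartile factors and ran from -0.052 to 0.042 with a pair left out. Rab3a was at 0.010 with upper-quartile factors, 0.0019 with no filter, 0.0022 with a filter of 1 CPM in 4 libraries and 0.0017 without the ribosomal RNA gene CT010467.1 and mitochondrially encoded genes, and ran from -0.064 to 0.11 with a pair left out. In the fits with the block and all 8 libraries, Sv2a, Sv2c and Syn1 were called under every scaling, filter and tool tried; Sv2b was removed by the 1 CPM filter and had no adjusted p in DESeq2. Syngr1, Slc18b1 and Atp6v1c1 were not past the threshold in DESeq2 (adjusted p = 0.0518, 0.0501 and 0.0728). Glul was not past it with no filter (0.0564). The cause of these changes was not tested. The 6 family differences kept their sign with a prior count of 0.5 and with each pair left out. The comparison of Slc17a6 with Slc17a7 was not run.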
